A study of Mus musculus with 4 samples.

Results

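The genes described here are the nuclear-encoded subunits of oxidative phosphorylation, taken by symbol from single-cell RNA sequencing of mouse embryonic heart ventricles. Symbols beginning with Nduf (a, b, c, s or v followed by a digit), Uqcr, Cox4 to Cox8 or Atp5 were taken, and 98 rows of the deposited matrices matched. Of these, 13 had pseudogene names and 3 (Cox8c, Ndufa11b and a further row named Atp5o) held fewer than 50 UMIs, the unique molecular identifiers that count captured transcripts. This left 82 members of 55405 features: 37 of complex I, 8 of complex III, 20 of complex IV (with Ndufa4 and Ndufa4l2, now placed in that complex) and 17 of complex V. Of the members, 3 (Cox6c2, Ndufb4c and Ndufs6b) are processed pseudogenes in GENCODE M21, and 3 others (Ndufa1, Ndufb11 and Cox7b) lie on the X chromosome.

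Ventricles were taken at E12.5 from embryos that had met tamoxifen at E9.5, and their cells were freed with collagenase. The group Gata4_het had the genotype Gata4fl/+;Rosa26mTmG/+;Cdh5(Pac)-CreER+ and the group Gata4_KO had Gata4fl/fl;Rosa26mTmG/+;Cdh5(Pac)-CreER+, with 2 libraries each, here het 1, het 2, KO 1 and KO 2. The Cre is driven by the Cdh5 promoter, active in endothelium, so it is aimed at the endothelial lineage and not at cardiomyocytes. Both groups carried the Cre, the reporter, tamoxifen and at least 1 floxed allele of Gata4, which encodes a cardiac transcription factor, and no group without Cre was among the samples. Whether an embryo or a pool of embryos made up a library is not given in the labels, so p-values measure the spread between these libraries, which may be technical.

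Complex I passes electrons from NADH to ubiquinone, complex III passes them to cytochrome c, and complex IV hands them to oxygen. Complexes I, III and IV pump protons across the inner mitochondrial membrane, and complex V, the ATP synthase, makes ATP as the protons flow back. Most subunits are encoded in the nucleus and a core set in mitochondrial DNA, and several subunits of complex IV exist as a muscle isoform and a widely expressed one, with the muscle forms gaining ground as heart and skeletal muscle mature.

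The matrices held between 137890971 and 190207638 UMIs per library, and 52719 cells were kept, between 6785 (KO 2) and 22474 (het 1) per library. Library het 1 stood apart: its median cell held 4165.5 UMIs, against 7087 to 14048 in the others, and 78.0% of its cells stayed without a class name, against 8.72, 11 and 8.73% in het 2, KO 1 and KO 2. It held 23459 barcodes, where the labels speak of about 10000 cells a library. Between 14 and 87 cell barcodes were shared by any pair of libraries. The classes below were built by clustering without the members, and each is named for its markers. Cardiomyocyte markers (15 contractile and related genes) took 8.12, 8.39, 7.89 and 8.23% of UMIs in cardiomyocyte-like cells of het 1, het 2, KO 1 and KO 2, and 0.658, 0.220, 0.229 and 0.121% in endothelial-like cells. Library values below are always given in that order, and shares of UMIs leave globin out. The gap in marker shares follows in part from the naming rule. It asked for at least 5% on these markers in cardiomyocyte-like clusters and under 1% in clusters of any other class.

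The members took a far greater part of the transcripts of cardiomyocyte-like cells than of any other class. In cardiomyocyte-like cells 5.95, 6.94, 6.60 and 7.31% of UMIs fell on the 82 members, a mean of 6.70% ± 0.578 (SD, n = 4 libraries). Erythroid-like cells followed with 3.33, 3.23, 2.93 and 3.13%, and macrophage-like cells with 2.29, 2.61, 2.37 and 2.64%. The shares of endothelial-like cells (2.18, 2.30, 1.89 and 2.21%), mesenchymal-like cells (2.15, 2.27, 2.04 and 2.27%) and epicardial-like cells (1.86, 2.28, 1.999 and 2.09%) overlapped one another. The cardiomyocyte-like range lay apart from every other class, and the erythroid-like range lay apart from all others too. These ranges hold for the named clusters. Clusters left unnamed for their share of cardiomyocyte markers had 2.77 to 5.32% on members and are outside them. Transcripts of the 13 proteins encoded in mitochondrial DNA did not have this order: they took 3.18, 2.47, 2.40 and 1.83% of UMIs in cardiomyocyte-like cells and 2.35, 1.67, 2.51 and 1.88% in endothelial-like cells, ranges that overlap, and 0.771, 0.659, 1.15 and 0.805% in erythroid-like cells. There were thus 286 ± 87.5 UMIs on members per 100 on mitochondrially encoded genes in cardiomyocyte-like cells, 106 ± 27.5 in endothelial-like cells and 391 ± 100.5 in erythroid-like cells. The cardiomyocyte-like values join unlike clusters. Mitochondrially encoded genes took 3.99 and 3.36% of UMIs in its clusters 6 and 27, and 0.252 to 0.399% in its other clusters. The endothelial-like clusters 10, 14 and 22 had 2.11, 1.99 and 1.83%.

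**Figure D1:**
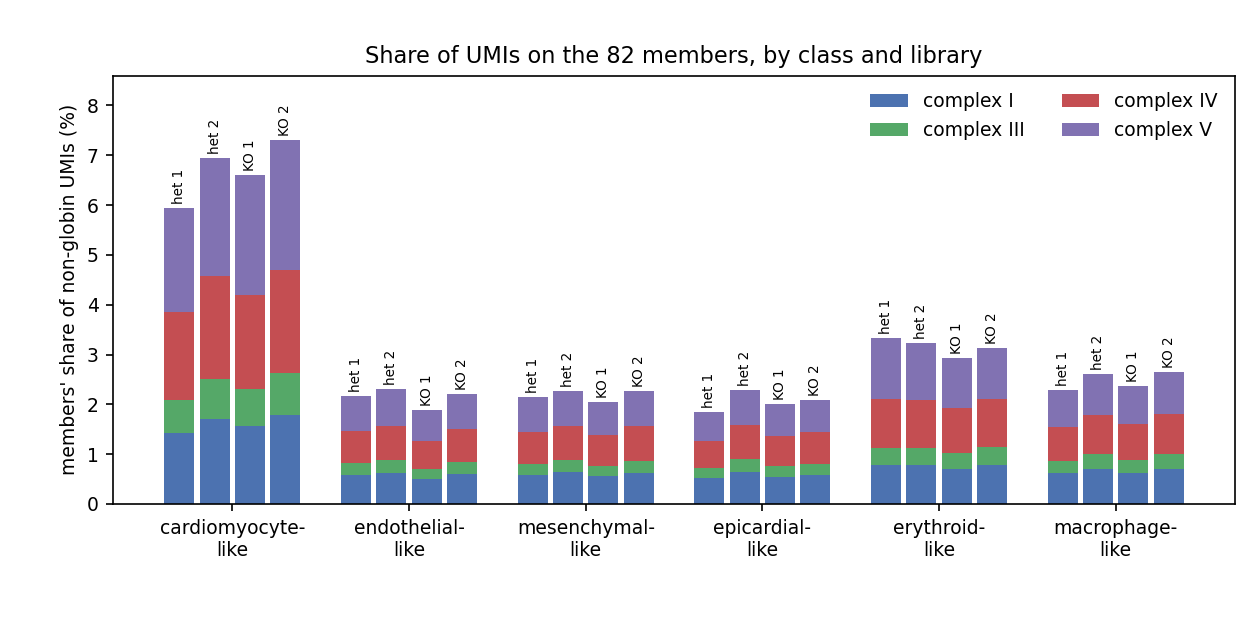
Stacked bars give the percent of non-globin UMIs on the 82 members in each class and library, split by complex, from 0 on a linear axis. The 4 cardiomyocyte-like bars, between 5.95 and 7.31%, stand above every bar of the other classes.

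Levels of single members are given as CPM (a gene's UMIs per 1000000 UMIs of a class in a library, globin left out, after TMM scaling across classes). Each UMI marks 1 transcript end, so no gene length was divided out, and levels of different genes are compared as UMIs. Over all 6 classes, complex V took 34.2% of the members' UMIs, complex IV 29.5%, complex I 25.1% and complex III 11.2%. The mean level over the classes ran from 0.249 CPM for the pseudogene Cox6c2 to 1272 CPM for Cox4i1, a subunit of complex IV, and 70 members reached 100 CPM. By mean level, 73 of the 82 were highest in cardiomyocyte-like cells, 56 of them with every library above every library of the other classes, and 47 were lowest in epicardial-like cells.

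The first comparison set cardiomyocyte-like against endothelial-like cells, with library as a block. All 81 members that passed the filter on low counts (Cox6c2 did not) were called higher in cardiomyocyte-like cells by edgeR's quasi-likelihood test at a Benjamini-Hochberg adjusted p of 0.05, where 37.8% of all genes tested were called higher, 39.3% lower and 77% in either direction. Without het 1 it was 82 of 82. Their median log2 difference was 2.08, beside -0.018 over all genes. Scaling by library size alone moved the median of all genes to -0.49 and that of the members to 1.61, with 80 members called higher. Ratios of the mean CPM had a median of 4.04 and ran from 1.32 for Cox6b2 to 40.8 for Cox6a2.

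Complex I was higher as a whole, with 34 of its 37 members highest in cardiomyocyte-like cells. Its highest member, the accessory subunit Ndufb8, stood at 836, 1075, 881 and 1222 CPM there and at 221, 265, 186 and 242 CPM in endothelial-like cells, a log2 difference of 2.21 (SE 0.13, adjusted p = 3.07e-07), with no overlap of the libraries. Core subunits of the arm that takes electrons from NADH (Ndufv1, Ndufv2, Ndufs1, Ndufs3, Ndufs7 and Ndufs8, chosen by role with their values known) had mean levels of 225 to 550.0 CPM in cardiomyocyte-like cells and 61.2 to 109 in endothelial-like cells. Their log2 differences ran from 1.47 (Ndufs8) to 2.51 (Ndufv1). The lowest member, Ndufs6b, a retrocopy of the subunit gene Ndufs6, stood at 0.874 ± 0.117 CPM (SD, n = 4) in cardiomyocyte-like cells and is uncertain, since reads can be shared with its parent gene.

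The 8 members of complex III were all highest in cardiomyocyte-like cells. Uqcrh, the hinge protein beside cytochrome c1, led with 1433, 1829, 1809.6 and 2139 CPM, against 455, 495, 385 and 456 CPM in endothelial-like cells (log2 difference 2.08, SE 0.15, adjusted p = 1.29e-06). Uqcrc1, a core protein with the lowest level in the complex, stood at 321, 473, 306 and 433 CPM against 95.7, 136, 89.5 and 126 CPM (log2 difference 1.85, SE 0.092, adjusted p = 1.41e-07). Uqcrfs1, the Rieske iron-sulfur protein, stood at 598, 756, 732 and 947 CPM against 135, 142, 99.7 and 126 CPM. In each of these genes the lowest cardiomyocyte-like library lay above the highest endothelial-like one.

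In complex V, 15 of 17 members were highest in cardiomyocyte-like cells. Atp5b, the catalytic beta subunit, was the most abundant member of that class, at 2496, 2872, 2817 and 3222 CPM, against 556, 579, 503 and 554 CPM in endothelial-like cells (log2 difference 2.45, SE 0.14, adjusted p = 2.67e-07). The 5 subunits of its F1 head (Atp5a1, Atp5b, Atp5c1, Atp5d and Atp5e, chosen by role) differed by 1.75 (Atp5e) to 2.45 (Atp5b) on the log2 scale. Atp5o, in the stalk that holds the head in place, had 1500.0, 1890.2, 1821 and 2442 CPM against 309, 338, 234 and 331 CPM, the greatest difference in the complex at 2.73 (SE 0.16, adjusted p = 3.71e-07). The c ring through which protons pass is made of identical mature peptides from 3 genes, and these differed in how they were spread over the classes. Atp5g1 gave 55.2, 63.2, 54.1 and 63.3% of the UMIs of the 3 in cardiomyocyte-like cells and 51.0, 58.8, 47.1 and 55.5% in endothelial-like cells, ranges that overlap, with cardiomyocyte-like cells the higher in each library. Atp5g2 gave 3.17, 2.003, 2.88 and 3.46% of them in cardiomyocyte-like cells and 7.94, 5.70, 7.62 and 9.25% in endothelial-like cells, ranges that do not overlap. Its level of 117 ± 36.4 CPM in cardiomyocyte-like cells and its log2 difference of 1.07 (SE 0.11) were the lowest in the complex. Atp5g3 stood at 1404, 1356, 1781 and 1589.5 CPM and 325, 273, 316 and 273 CPM in the same classes.

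**Figure D2:**
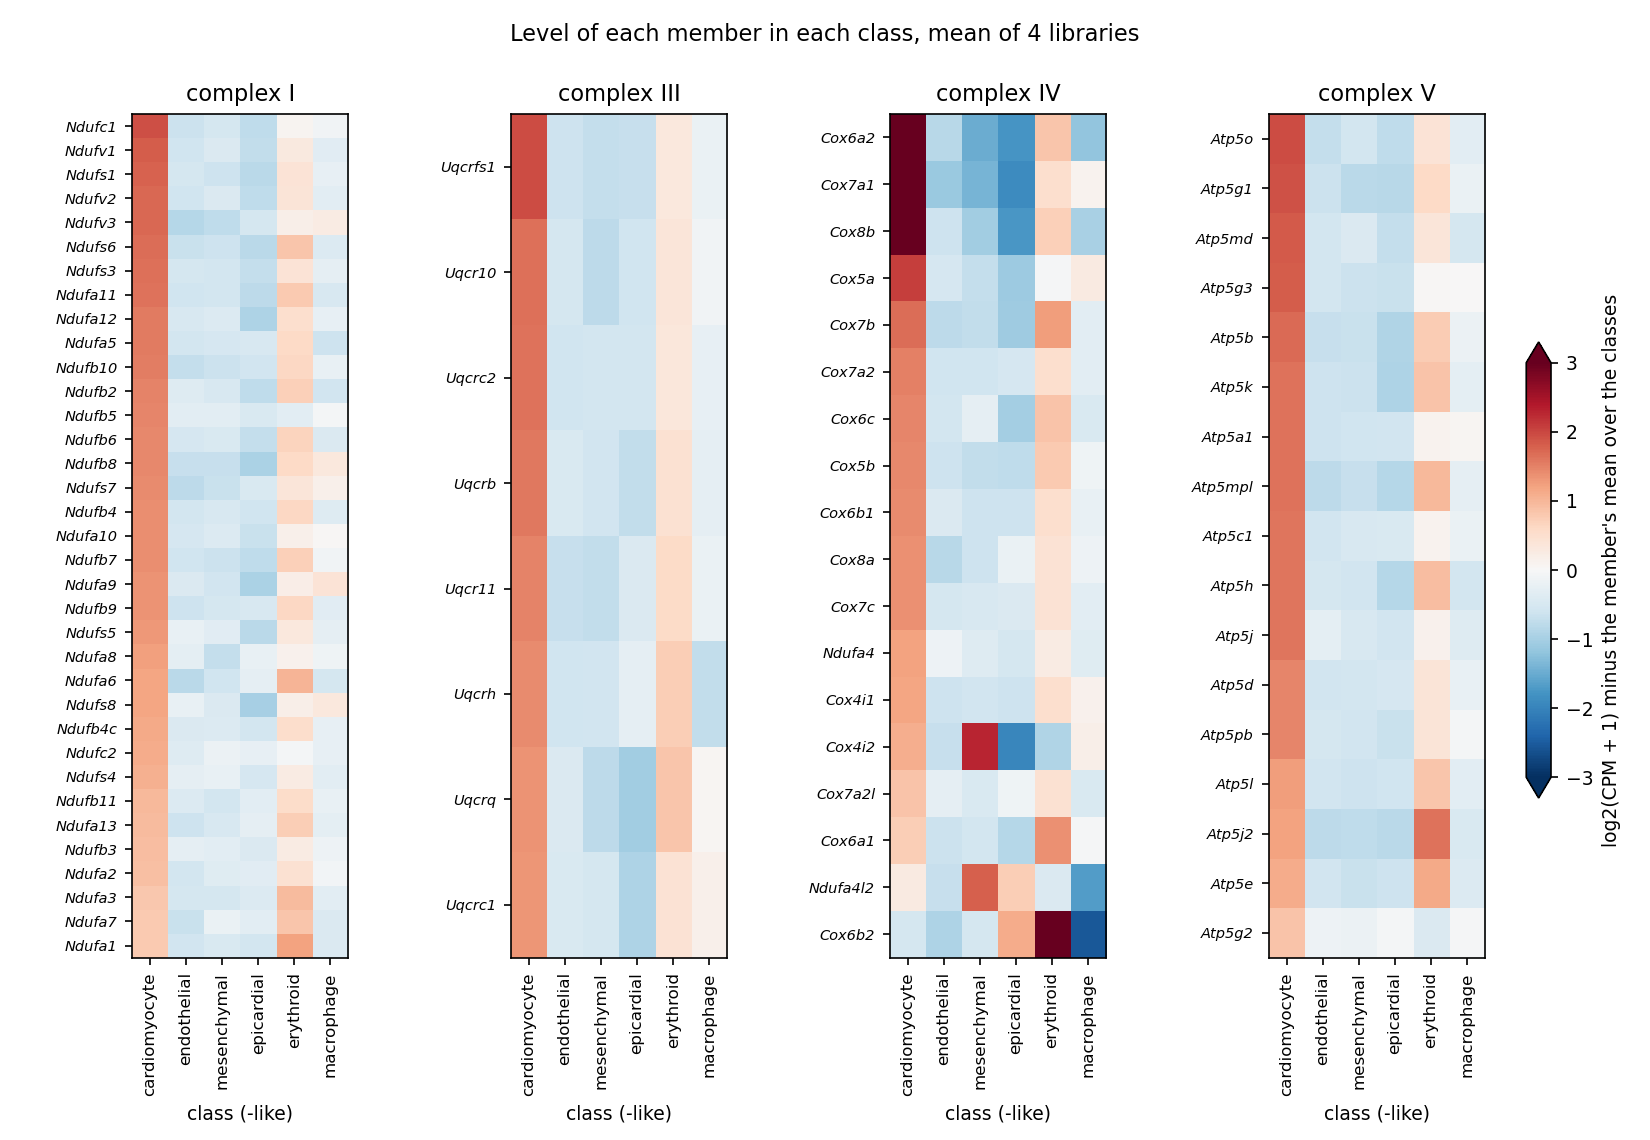
Heat maps of each member by complex and class show log2(CPM + 1), mean of 4 libraries, minus the member's mean over the classes, with colour limited to 3 either way and 4 members not drawn, among them the 3 with fewest UMIs. The cardiomyocyte-like column is the warmest for most rows, and complex IV holds the rows that depart most from it, among them Cox6b2, Cox4i2 and Ndufa4l2.

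Complex IV held the widest spread: its log2 differences between cardiomyocyte-like and endothelial-like cells ran from 0.47 to 5.56, against 1.28 to 2.65 in complex I, 1.85 to 2.66 in complex III and 1.07 to 2.73 in complex V. The isoform genes described below lie at these places in GRCm38 (GENCODE M21): Cox6a2 at chromosome 7, 128205435 to 128206387, Cox7a1 at chromosome 7, 30184144 to 30186078, Cox8b at chromosome 7, 140898945 to 140900446, Cox4i2 at chromosome 2, 152754173 to 152765037, Ndufa4l2 at chromosome 10, 127514967 to 127517154 and Cox6b2 at chromosome 7, 4751792 to 4753094, all protein coding. Cox6a2, the muscle isoform of subunit 6a, had the greatest difference of all members: 434, 586, 457 and 564 CPM in cardiomyocyte-like cells against 22.1, 12.47, 9.76 and 5.62 CPM in endothelial-like cells (log2 difference 5.56, SE 0.35, adjusted p = 5.66e-07). Cox7a1, the muscle isoform of subunit 7a, had 186, 275, 298 and 409 CPM against 16.6, 7.17, 8.06 and 4.19 CPM (5.18, SE 0.43, adjusted p = 4.08e-06). Cox8b, the muscle isoform of subunit 8, had 47.2, 59.5, 70.3 and 86.0 CPM against 5.10, 1.19, 2.27 and 1.096 CPM (4.98, SE 0.39, adjusted p = 2.39e-06). The widely expressed partners were also higher in cardiomyocyte-like cells, by less: the log2 difference was 1.47 (SE 0.09951) for Cox6a1, 2.19 (SE 0.13) for Cox7a2 and 2.26 (SE 0.14) for Cox8a. Cox7b2, a second form of subunit 7b, was called higher too (2.70, SE 0.38, adjusted p = 1.26e-04), at a level of 1.21 ± 0.229 CPM against 1779.7 ± 338 CPM for Cox7b. Cox7a2l, which helps join complexes III and IV, stood at 494, 563, 613 and 687 CPM against 273, 294, 224 and 281 CPM (log2 difference 1.21, SE 0.13). Cox4i1, the widely expressed subunit 4, stood at 2301, 2722, 2433 and 2849 CPM against 733, 807, 644 and 738 CPM (log2 difference 1.89, SE 0.13).

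The muscle isoforms did not hold equal shares of their pairs at this stage. Cox6a2 gave 44.4, 45.7, 46.1 and 46.9% of the UMIs of Cox6a2 and Cox6a1 in cardiomyocyte-like cells, a mean of 45.8 ± 1.04% (SD, n = 4). Cox7a1 gave 11.7, 12.54, 16.0 and 16.1% of those of Cox7a1 and Cox7a2. Cox8b gave 2.14, 1.96, 2.69 and 2.49% of those of Cox8b and Cox8a. The widely expressed gene thus held most UMIs of each pair in all 4 libraries. In the other 5 classes the mean share of Cox6a2 lay between 2.67 and 5.21%, and the highest single library was het 1 of endothelial-like cells with 9.22%. The level of Cox6a2 in endothelial-like cells was 6.44, 2.68, 2.89 and 1.39% of its cardiomyocyte-like level, and that of the summed cardiomyocyte markers, measured the same way, was 8.10, 2.62, 2.91 and 1.47%. All 15 cardiomyocyte markers were above 0 in every endothelial-like library. Both series run together over the libraries, and whether endothelial-like cells transcribe Cox6a2 themselves was not tested. Cox7a1 was at 10.5, 9.19, 9.88 and 8.07% of its cardiomyocyte-like level in macrophage-like cells, where the cardiomyocyte markers were at 2.94, 2.34, 2.16 and 1.96%, Cox6a2 at 2.19, 1.901, 2.71 and 2.32% and Cox8b at 3.94, 2.76, 3.34 and 2.76%. Cox7a1 was thus above the other muscle genes in all 4 macrophage-like libraries.

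**Figure D3:**
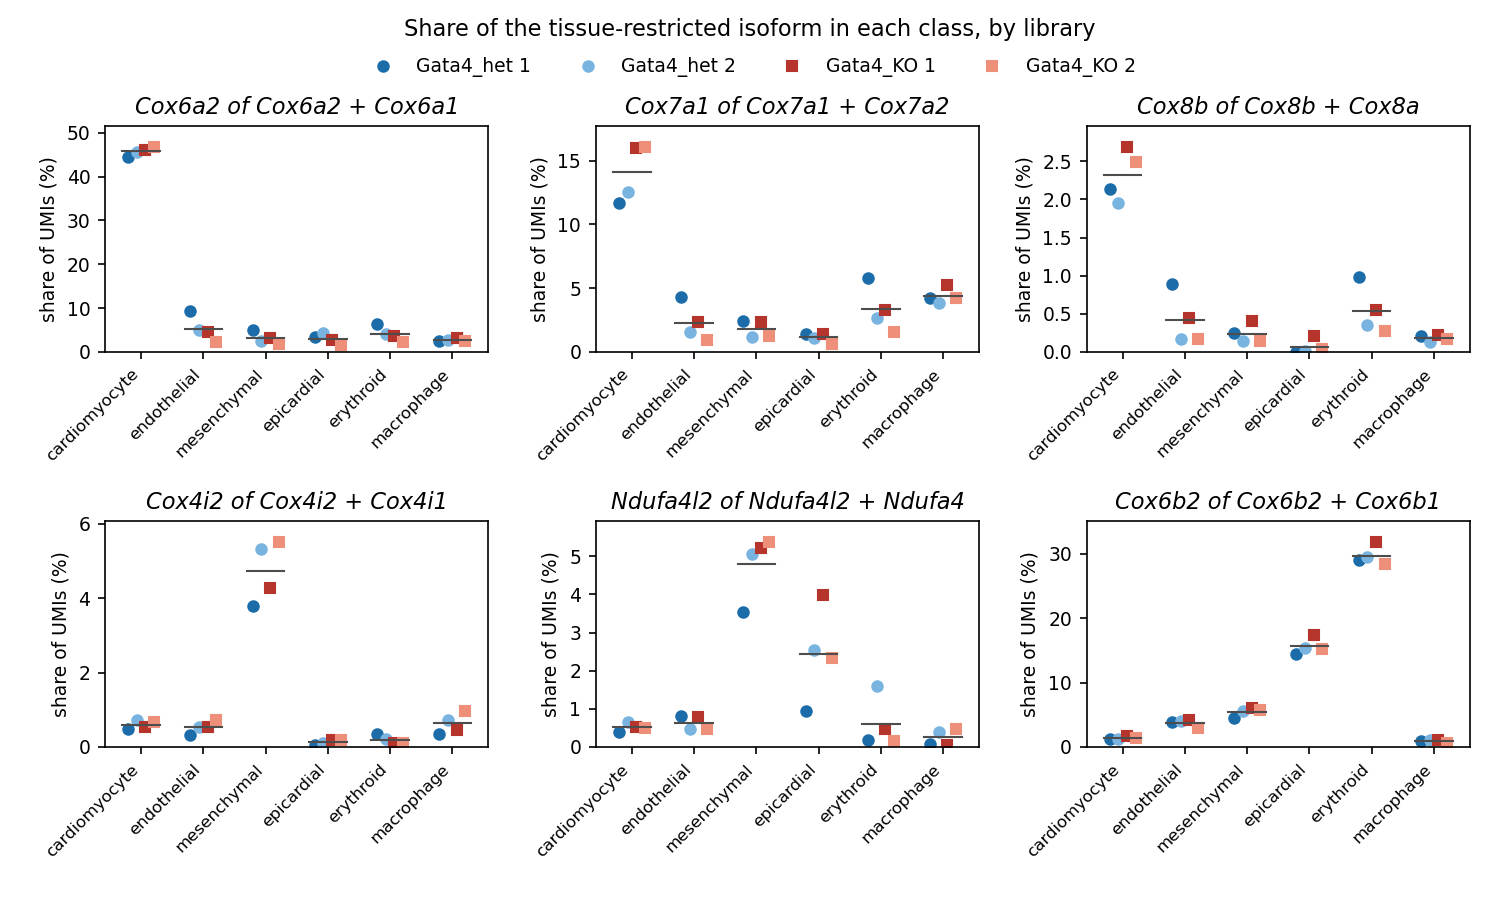
Each panel gives the share of an isoform in the UMIs of its pair (vertical axis, percent from 0) for every class and library, with a line at the mean of 4 libraries. Cox6a2, Cox7a1 and Cox8b have their highest shares in cardiomyocyte-like cells, Cox4i2 and Ndufa4l2 in mesenchymal-like cells and Cox6b2 in erythroid-like cells.

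The muscle isoforms Cox8b and Cox7a1 have promoters with fewer CpG dinucleotides than most members. No promoter was found for the muscle isoform Cox6a2, so the CpG counts cannot be set against the isoforms' shares of their pairs. RefSeq promoters (build GRCm38.p6, 250 bases before to 50 after the start) were found for 65 of the 82 members, as 70 windows. The members' windows had a median of 19 CpG, against 7 over 32851 windows of all genes, and 94.3% held at least 10, against 43.5% of all. The 4 members under 10 were Cox8b (2), Cox7b (5), Cox7a1 (7) and Ndufc2 (8), of which Cox7b and Ndufc2 are expressed in every class. Cox7a1 was thus low among the members but at the median of all windows. The 150 bases before the start of Cox8b and Cox7a1 are set beside those of the widely expressed partners, 5′ to 3′ on the gene's strand, with each CpG in capitals. The RefSeq start of Cox7a1 lies 27 bases, and that of Cox7a2 25 bases, inside the first exon of GENCODE M21.
Cox8b, chr7:140900447-140900596, reverse strand: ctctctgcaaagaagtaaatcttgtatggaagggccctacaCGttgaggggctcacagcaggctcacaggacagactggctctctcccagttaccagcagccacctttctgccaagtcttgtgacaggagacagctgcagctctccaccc
Cox8a, chr19:7217617-7217766, reverse strand: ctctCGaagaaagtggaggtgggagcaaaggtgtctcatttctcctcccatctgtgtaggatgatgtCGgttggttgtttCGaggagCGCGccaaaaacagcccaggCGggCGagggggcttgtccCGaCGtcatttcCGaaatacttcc
Cox7a1, chr7:30184021-30184170, forward strand: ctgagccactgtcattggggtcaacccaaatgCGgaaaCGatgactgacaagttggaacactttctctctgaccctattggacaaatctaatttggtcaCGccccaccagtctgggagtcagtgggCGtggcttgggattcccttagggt
Cox7a2, chr9:79759854-79760003, reverse strand: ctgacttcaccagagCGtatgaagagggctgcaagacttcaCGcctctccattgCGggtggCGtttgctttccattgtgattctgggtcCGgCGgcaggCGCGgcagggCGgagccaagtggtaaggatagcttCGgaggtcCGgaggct
The stretch of Cox8b held 1 CpG and that of Cox8a 10, at the same GC content of 55.3%. Those of Cox7a1 and Cox7a2 held 4 and 11.

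Short motifs of factors known to act on respiratory genes were searched on both strands of the 300-base windows. The ETS family core CCGGAA was in 35.7% of the members' windows and 14.9% of all windows. The NRF1 motif (GCGCA, any base, GCGC) was in 22.9% against 4.60%, the YY1 motif AAGATGGC in 14.3% against 2.75%, and the oestrogen-related receptor element AAGGTCA in 10.0% against 4.72%. The GATA motif AGATAA was in 8.57% against 11.2% and the TATA box TATAAA in 12.9% against 13.6%. A loose form of the MEF2 motif (CTA, any 4 bases, TAG), which also takes in other sequences, was in 1.43% against 3.69%. The members' windows hold more CpG than all windows (above), and its part in these shares was not tested. A match is a description of the letters and not of a bound site.

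Mesenchymal-like cells had 2 members at their highest level, both in complex IV. Cox4i2, the isoform of subunit 4 known from lung and from oxygen-sensing cells, stood at 29.4, 45.02, 30.4 and 45.9 CPM there, against 2.32, 4.37, 3.40 and 5.34 CPM in endothelial-like and 10.9, 19.6, 12.9 and 19.6 CPM in cardiomyocyte-like cells. Its share of the pair with Cox4i1 was 3.80, 5.32, 4.29 and 5.52% in mesenchymal-like cells and below 1% in every library of every other class. Ndufa4l2, the paralogue of Ndufa4 known to be induced by low oxygen, stood at 18.2, 28.0, 24.4 and 31.0 CPM in mesenchymal-like, 3.72, 13.6, 18.0 and 11.6 CPM in epicardial-like and 4.58, 3.09, 4.05 and 3.002 CPM in endothelial-like cells. The mesenchymal-like libraries were above the endothelial-like ones for both genes without overlap, while for Ndufa4l2 the highest epicardial-like library came close to the lowest mesenchymal-like one. The mesenchymal-like clusters were uneven in Ndufa4l2. Without TMM scaling it stood at 58.5 CPM in cluster 13, led by Col14a1, at 16.4 CPM in cluster 7 and at 7.23 CPM in cluster 19. The epicardial-like cluster 21 had 15.4 CPM and the cardiomyocyte-like cluster 0 had 10.3 CPM. Cox4i2 stood at 34.7, 60.1 and 40.7 CPM in clusters 13, 7 and 19.

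Against endothelial-like cells, mesenchymal-like cells had 10 members called higher and 19 called lower of 79 tested, where 31.4% and 31.7% of all genes were called, 63.2% in all. The median over the members was -0.028, beside 0.0002 over all genes, so the members as a set stood at about the same level in both classes. Cox4i2 rose by 3.25 (SE 0.089, adjusted p = 1.10e-08) and Ndufa4l2 by 2.79 (SE 0.18, adjusted p = 2.05e-06) on the log2 scale. The next were Ndufa7 (0.44, SE 0.047, adjusted p = 4.53e-05), Cox6b2 (0.37, SE 0.11, adjusted p = 0.0151) and Cox6c (0.25, SE 0.043, adjusted p = 9.26e-04). On the lower side, Cox6a2 (-0.69, SE 0.14, adjusted p = 0.00278), the complex I subunit Ndufa8 (-0.46, SE 0.052, adjusted p = 6.30e-05) and the complex III subunits Uqcrq (-0.40, SE 0.043, adjusted p = 5.13e-05) and Uqcr10 (-0.29, SE 0.045, adjusted p = 5.01e-04) were called, and Cox8b was not (-0.43, SE 0.29, adjusted p = 0.233). Cardiomyocyte markers took 0.351, 0.125, 0.236 and 0.104% of UMIs in mesenchymal-like and 0.658, 0.220, 0.229 and 0.121% in endothelial-like cells, and their part in the difference of Cox6a2 was not tested. The split of calls turned with scaling by library size alone, to 21 higher and 12 lower, and with cells of at least 10000 UMIs, to 18 and 9. In those cells of many UMIs Cox6a2 lost its call. Without het 1 there were 16 higher and 18 lower, and without KO 2 there were 6 and 14, Cox6b2 not among them. The shares of all genes called in these other runs are not given here, so their counts cannot be set against a background.

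Against cardiomyocyte-like cells, mesenchymal-like cells had 79 of 82 members called lower and 2 called higher (37.2% and 39.5% of all genes were higher and lower in cardiomyocyte-like cells, 76.8% in all). The same counts came without het 1, and with scaling by library size alone 78 members were higher and 3 lower in cardiomyocyte-like cells. Given as cardiomyocyte-like minus mesenchymal-like, the median was 2.12, beside -0.041 over all genes. Cox6a2 (6.27, SE 0.24, adjusted p = 9.20e-11), Cox8b (5.60, SE 0.18, adjusted p = 2.21e-11), Cox7a1 (5.51, SE 0.24, adjusted p = 3.49e-10), the early-assembling subunit Cox5a (2.90, SE 0.13, adjusted p = 3.48e-10) and Atp5g1 (2.83, SE 0.14, adjusted p = 7.73e-10) differed most. The exceptions were Ndufa4l2 (-1.52, SE 0.099, adjusted p = 1.57e-08) and Cox4i2 (-1.14, SE 0.078, adjusted p = 2.59e-08), and Cox6b2 was not called, at 25.1 ± 5.68 CPM and 25.02 ± 4.30 CPM.

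Erythroid-like cells held 7 members at their highest level (named after their values were seen): Cox6b2, Cox6a1, Atp5e, Atp5j2, Ndufa1, Ndufa3 and Ndufa7. Cox6b2, known as the testis isoform of subunit 6b, stood at 467, 439.9, 327 and 354 CPM, and at 57.0, 95.2, 86.5 and 84.3 CPM in epicardial-like, 18.1, 23.3, 18.0 and 16.5 CPM in endothelial-like and 4.70, 6.49, 6.23 and 4.37 CPM in macrophage-like cells. Its share of the pair with Cox6b1 was 29.0, 29.5, 31.9 and 28.5% in erythroid-like cells, 14.5, 15.3, 17.3 and 15.3% in epicardial-like cells and 1.31, 1.18, 1.65 and 1.44% in cardiomyocyte-like cells, with no overlap between these 3 classes. Atp5j2, a subunit of the membrane part of ATP synthase, stood at 3406, 2696, 1495 and 1600.5 CPM in erythroid-like cells, where it was the most abundant member, and at 1311, 1801, 1636 and 2127 CPM in cardiomyocyte-like cells. Those 2 ranges overlap, as do those of Atp5e (2082 ± 684 CPM and 2044 ± 448 CPM). Ndufa1 overlapped too, at 486, 349, 249 and 238 CPM in erythroid-like and 212, 270, 242 and 257 CPM in cardiomyocyte-like cells. For Ndufa3 and Ndufa7 the cardiomyocyte-like mean was 0.906 and 0.973 of the erythroid-like mean. Over all members the ratio of erythroid-like to endothelial-like means had a median of 2.16 and ran from 0.814 for Atp5g2 to 20.9 for Cox6b2, given without a test.

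The other genes of energy metabolism, from lists chosen by function, were also mostly higher in cardiomyocyte-like than in endothelial-like cells. Complex II and cytochrome c, which join the electron chain between the complexes, had 6 of 6 genes called higher with a median of 2.65. Cyc1, cytochrome c1 of complex III, whose symbol the rule passes over, stood at 849 ± 143 CPM against 127 ± 14.9 (log2 difference 2.81, SE 0.15), soluble cytochrome c (Cycs) at 1711 ± 329.9 CPM against 288 ± 35.5 (2.64, SE 0.14) and Sdha at 310.0 ± 24.3 CPM against 85.4 ± 3.17 (1.93, SE 0.1006). The 5 further subunit genes outside the rule (Cyc1 among them) had 5 called higher and a median of 1.63. Of 36 assembly factors, 34 were called higher (median 1.25), led by p in Ecsit (2.09, SE 0.1018), Ndufaf7 (1.71, SE 0.087) and Ndufaf5 (2.08, SE 0.11), all needed to build complex I.

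The 13 mitochondrially encoded subunits were all called higher after TMM scaling, with a median of 0.75, below that of their nuclear-encoded partners. Among these mt-Nd6 (1.15, SE 0.13), mt-Co2 (0.93, SE 0.11) and mt-Nd5 (1.03, SE 0.13) led by p. Their summed shares of UMIs, which are not TMM-scaled, overlapped between the classes. In KO 1 the share was 2.40% in cardiomyocyte-like and 2.51% in endothelial-like cells, and in KO 2 it was 1.83 and 1.88%. The calls thus depend on the scaling, and calls of these genes without it are not reported here. Of 81 mitochondrial ribosomal genes tested, 79 were higher and 1 lower (median 1.11). The tricarboxylic acid cycle had 17 of 17 higher (median 2.18), with citrate synthase (Cs) at 279 ± 18.1 CPM against 70.1 ± 2.18, and fatty acid oxidation had 14 higher and 1 lower of 15 (median 1.997). Glycolysis was as high, with 19 of 19 called (median 2.37) and Pfkp at 293 ± 48.2 CPM against 22.7 ± 2.16. The 9 genes of energy transfer tested were all higher (median 2.05), with the muscle creatine kinase Ckm at 221 ± 47.5 CPM against 8.11 ± 3.55 and the ATP/ADP carrier Slc25a4 at 4422 ± 778 CPM against 581 ± 41.3. Among 14 regulators of mitochondrial biogenesis 10 were higher and 3 lower. The coactivator Ppargc1a stood at 148 ± 6.79 CPM against 4.80 ± 2.48 (5.12, SE 0.24), Ppargc1b at 36.7 ± 5.65 CPM against 3.93 ± 0.289 (3.29, SE 0.11) and the nuclear receptor Esrrg at 25.9 ± 6.76 CPM against 1.29 ± 0.582 (4.44, SE 0.15).

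The second comparison asked whether the members differed between Gata4_KO and Gata4_het. Gata4 UMIs were counted in every library: there were 135, 114, 185 and 173 CPM of Gata4 in endothelial-like cells and 80.3, 71.5, 76.2 and 77.2 CPM in cardiomyocyte-like cells. The KO libraries were above the het libraries in the first and overlapped them in the second. UMIs count transcript 3′ ends and the labels do not place the floxed part of the gene, so these counts do not check the deletion. No member passed an adjusted p of 0.05 in any of the 6 classes by edgeR without a block, nor did any gene (0% called in each class). With the replicate number as a block, members were called in cardiomyocyte-like, endothelial-like and erythroid-like cells. The labels do not say what that number marks, and the counts are given in the last section. At an unadjusted p under 0.05 the fit without a block had 8 of 82 members in cardiomyocyte-like, 1 of 79 in endothelial-like and 0 of 80 in mesenchymal-like cells, where 6.78%, 3.91% and 0.991% of all genes were under it. It had 1 of 78 in epicardial-like, 13 of 79 in erythroid-like and 0 of 79 in macrophage-like cells, beside 1.63%, 16.7% and 1.85% of all genes. DESeq2 called 0 members in 5 classes and 1, Cox6a2, in erythroid-like cells, where it called 374 of 12551 genes.

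In cardiomyocyte-like cells, which the Cre is not aimed at, most members stood somewhat higher in KO, by an amount that moved with single libraries. The log2 difference was above 0 for 79 of 82 members, with a median of 0.29 beside -0.0033 over all genes, of which 49.6% were above 0. The KO libraries lay above the het libraries for 24 members and below for 0, where 17.6% and 22.6% of all genes did so. The share of UMIs on members was 6.44% ± 0.700 in het and 6.95% ± 0.503 in KO (SD, n = 2 each; two-sided exact permutation p = 0.667, adjusted over 6 classes 0.8). With 2 libraries against 2 that test cannot go below 0.333. The het and KO libraries overlapped in this share, and both libraries numbered 2 lay above both numbered 1. Without KO 1, edgeR called 4 members, all higher in KO, among 210 of 16840 genes called.

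Ndufb4, an accessory subunit of complex I, had the greatest difference among the 3 members of lowest p above 0, at 0.65 (SE 0.22, adjusted p = 0.678). Cox6b2 stood at 18.9 and 21.8 CPM in het and 28.9 and 30.8 CPM in KO (0.56, SE 0.14) and Cox8b at 47.2 and 59.5 CPM in het and 70.3 and 86.0 CPM in KO (0.56, SE 0.17), both with adjusted p = 0.678 in the edgeR fit and both with the KO libraries above the het libraries. Cox7a1 also had its libraries apart, at 186 and 275 CPM in het and 298 and 409 CPM in KO (0.63, SE 0.24), whereas Cox6a2, at 434 and 586 CPM in het and 457 and 564 CPM in KO (0.013, SE 0.20), overlapped. As a share of its pair Cox7a1 was 12.1% in het and 16.1% in KO, and Cox8b 2.05% and 2.59%, means of 2 libraries that did not overlap. The 3 members below 0, Uqcrc1 (-0.090, SE 0.25), Cox6a1 (-0.067, SE 0.19) and Ndufa4l2 (-0.082, SE 0.32), differed by less than their standard errors. Transcripts of the mitochondrial genome went the other way, with a median of -0.30 and 3 of 13 above 0, and none of them was called. They took 3.99% of UMIs in cluster 6 and 0.399% in cluster 0. Cluster 6 held 59.5, 70.2, 40.6 and 40.3% of the class UMIs, and cluster 0 held 3.25, 9.78, 22.5 and 21.9%. The part of this mixture in the median was not tested.

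The median of the members in cardiomyocyte-like cells moved with the library and the cells used. Leaving out het 1 gave 0.11 and leaving out KO 2 gave 0.087, while het 2 or KO 1 left out gave 0.45 and 0.43. Cells of at least 10000 UMIs gave 0.19, and keeping the clusters left unnamed because 1 library held most of them or their UMIs were few gave 0.20. The class is made of 6 clusters that the genotypes filled unequally. Cluster 6, led by the sarcomere and calcium genes Ttn, Myom1, Slc8a1 and Ryr2, with a median of 25940 UMIs per cell, held 59.5, 70.2, 40.6 and 40.3% of the class UMIs, and members took 6.34% of its UMIs. Cluster 0, led by Mb and Tcea3, with a median of 2682 UMIs, held 3.25, 9.78, 22.5 and 21.9%, with 7.73% on members. KO libraries thus drew less of the class from cluster 6 and more from cluster 0. Within cluster 6 alone the median log2 difference was 0.032, with 55 of 80 members above 0, and the share on members was 5.43, 6.72, 5.67 and 6.68%, overlapping between the genotypes. In clusters 0, 2, 11 and 16 the KO mean share was above the het mean by 0.545, 0.144, 0.329 and 0.429 percentage points and in cluster 27 the difference was -0.191. All of these overlapped, and in all 6 clusters each library numbered 2 lay above the library numbered 1 of its genotype. Cluster 11, led by Cited1 and Myl1, had the highest share on members (7.80%).

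The muscle isoforms were spread unevenly over these clusters, given here as CPM of all cells of a cluster without TMM scaling and with no test. Cox8b stood at 128 CPM in cluster 11, whose other leading genes include Irx3 and Nppa, and at 25.6 to 60.9 CPM in the other 5. Cox6a2 stood at 1054 CPM in cluster 27, led by Sln, with Myh6, Shox2 and Myl7 among its leading genes, at 563 CPM in cluster 6 and at 252 to 330.1 CPM in the other 4. In each of the 4 libraries taken alone Cox8b was highest in cluster 11 and Cox6a2 in cluster 27. Cox7a1 stood at 208, 326, 328 and 409 CPM in cluster 0 and at 147, 212, 183 and 239 CPM in cluster 6 in het 1, het 2, KO 1 and KO 2, so cluster 0 was above cluster 6 in every library. The weight of this pair of clusters differed most between the genotypes, and the part of that in the Cox7a1 difference was not tested. Clusters 2 and 16, led by the cell cycle genes Rrm2 and Ube2c, had 231, 296, 319 and 360.0 CPM and 149, 284, 288 and 320.4 CPM of Cox7a1. The mitochondrially encoded genes took 3.99% of UMIs in cluster 6 and 0.399% in cluster 0, and ribosomal protein genes 12.1% and 20.8%.

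**Figure D4:**
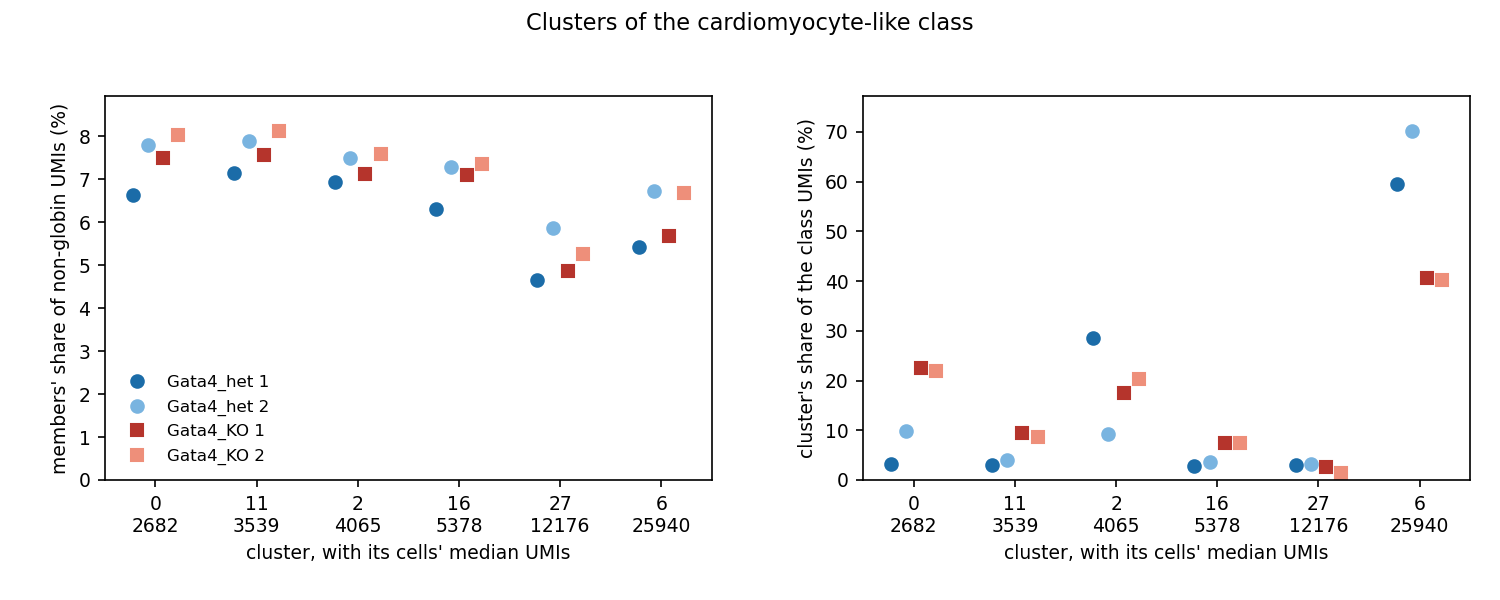
For the 6 clusters of the cardiomyocyte-like class, ordered by their cells' median UMIs, the left panel gives the members' share of non-globin UMIs and the right panel the cluster's share of the class UMIs (percent, 1 point per library). The genotypes overlap in the left panel in every cluster, and in the right panel cluster 6 holds less of the class in both KO libraries than in both het libraries.

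In endothelial-like cells, the class the Cre is aimed at, 69 of 79 members tested lay below 0 in KO, with a median of -0.13 beside 0.0029 over all genes. The KO libraries were below the het libraries for 8 members and above for 0, where 12.8% and 14.5% of all genes did so. The share on members was 2.24% ± 0.0870 in het and 2.05% ± 0.222 in KO (exact permutation p = 0.667, n = 2 each), and the libraries overlapped. Without KO 1 the median of the members was 0.055, above 0, and edgeR then called 2 members lower, among 194 of 16396 genes called. Without het 2 it called 3 lower, among 229 of 16560 genes, with a median of -0.012. In cells of at least 10000 UMIs the median was -0.036, and in cluster 10 alone, the endocardial-like cluster with most UMIs, -0.0084. The share in cluster 10 was 1.88, 2.27, 1.89 and 2.22%, with overlap. In cluster 14, also endocardial-like, it was 2.31, 2.13, 1.72 and 2.03%, and in cluster 22, vascular-like, 2.51, 2.65, 2.13 and 2.38%, with both KO libraries below both het libraries in each. The clusters were filled unequally: cluster 14 gave 43.0, 31.9, 26.0 and 19.3% of the UMIs of the class in het 1, het 2, KO 1 and KO 2, cluster 10 38.9, 48.3, 53.4 and 64.5% and cluster 22 18.1, 19.8, 20.6 and 16.3%. Cluster 14 was lower and cluster 10 higher in both KO libraries than in both het libraries, and the part of this in the class difference was not tested.

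Of the members of lowest p in endothelial-like cells, Cox6a2 (22.1 and 12.47 CPM in het and 9.76 and 5.62 CPM in KO) had a log2 difference of -1.16 (SE 0.36). Cox7a1 followed at 16.6 and 7.17 CPM in het and 8.06 and 4.19 CPM in KO (-0.94, SE 0.46). Cardiomyocyte markers in this class, given above, were highest in het 1 and lowest in KO 2 as well, and their part in these differences was not tested. Uqcrfs1 (135 and 142 CPM in het and 99.7 and 126 CPM in KO; -0.30, SE 0.17), the complex I subunit Ndufa6 (-0.24, SE 0.15) and Cox6b2 (-0.28, SE 0.17) were the others on the lower side. On the upper side stood Ndufb4 (0.25, SE 0.26), Atp5g2 (0.22, SE 0.23), Cox4i2 (0.34, SE 0.39), Atp5l, a subunit of the membrane part of ATP synthase (0.1034, SE 0.22), and the complex I subunit Ndufs5 (0.050, SE 0.20). All 10 had an adjusted p of 0.9998 in edgeR, and without KO 2 the 5 on the upper side were below 0.

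The difference between the genotype effects of the 2 classes, endothelial-like minus cardiomyocyte-like, was fitted as an interaction term, each library being a block. It was below 0 for 80 of 82 members, with a median of -0.43 beside -0.058 over all genes, and edgeR called 0 members and 0 genes (0% called). At an unadjusted p under 0.05 stood 66 of 82 members, against 18.1% of all genes, and with cells of at least 10000 UMIs 11 of 81, with a median of -0.22. Fewer members were under it without KO 1 or without KO 2 as well, fits that leave a single KO library. The shares of all genes in these other runs are not given here, so only the count of the main fit has a background. Cox6b2 (-0.88, SE 0.15), the flavoprotein-side core subunit Ndufv2 (-0.65, SE 0.12) and Uqcrfs1 (-0.68, SE 0.13) had the lowest p, each with an adjusted p of 0.178. The 2 members above 0 were the pseudogene Cox6c2 (1.22, SE 0.92) and Cox4i2 (0.21, SE 0.18). The 13 mitochondrially encoded genes were all above 0, with a median of 0.36. The genotypes filled the clusters of both classes unequally (above), and the part of this in the interaction was not tested. Members share the libraries and the scaling of each class, so their number does not add replicates.

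**Figure D5:**
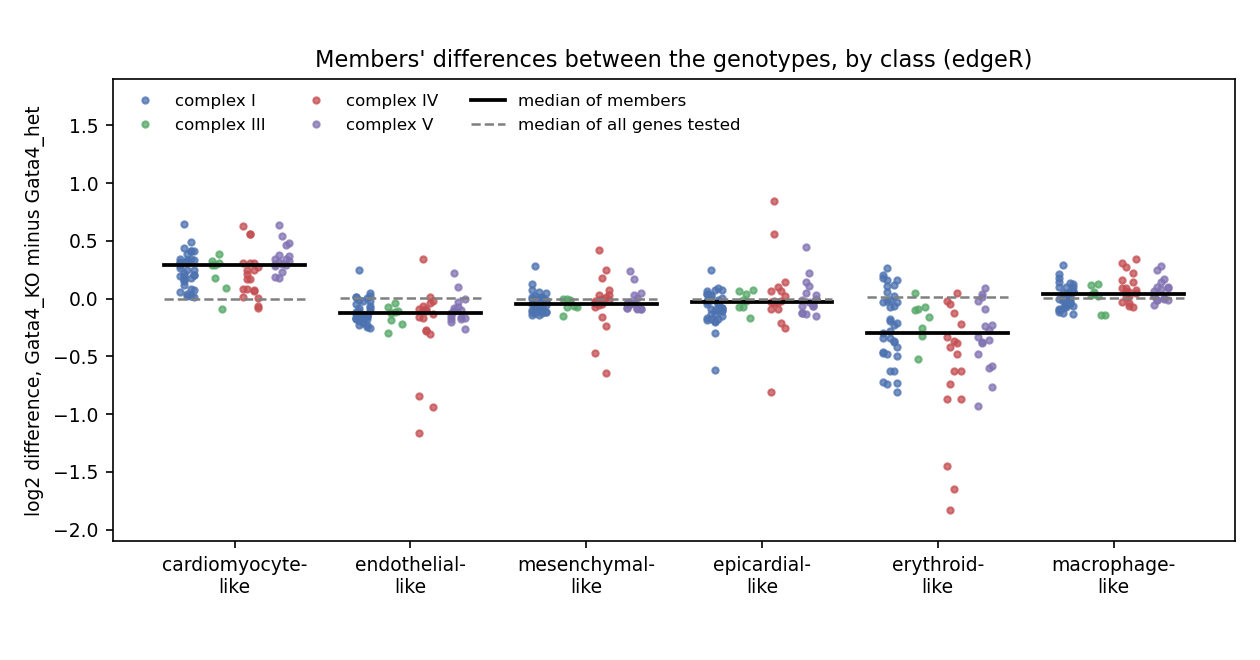
Each point is a member's log2 difference, KO minus het, in the edgeR fit of a class, coloured by complex, with a black line at the members' median and a dashed line at the median of all genes tested. The members' median is 0.29 in cardiomyocyte-like cells, -0.13 in endothelial-like and -0.30 in erythroid-like cells, and no point passed the adjusted threshold.

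Erythroid-like cells had the most members with separate libraries: the KO libraries were below the het libraries for 49 of 79 members and above for 0, where 29.5% and 26.5% of all genes did so. Without het 2 edgeR called 4 members lower, among 3420 of 13665 genes called, and without het 1 it called 2, among 242 of 13298 genes. The median was -0.30 beside 0.016 over all genes. With library size alone both moved, to -0.054 and 0.28. The share on members was 3.28% ± 0.0685 in het and 3.03% ± 0.142 in KO (exact permutation p = 0.333, the smallest possible), with no overlap. The class joins 2 clusters that the libraries filled very unequally: cluster 15, led by Hemgn, gave 2.69, 9.17, 33.5 and 39.5% of its cells and 10.0, 40.5, 74.3 and 79.5% of its non-globin UMIs in het 1, het 2, KO 1 and KO 2. The share on members was 2.68, 3.10, 2.85 and 3.13% in cluster 15, where het and KO overlapped, and 3.40, 3.32, 3.17 and 3.14% in cluster 1, led by the embryonic globin Hbb-bh1, where both KO libraries lay below both het libraries. The part of this mixture in the members' differences was not tested. Erythroid markers, mostly globins, took 76.2, 73.7, 63.7 and 59.3% of all UMIs in this class, also lower in KO, and with globin kept in the total the KO share on members was higher, not lower, by 0.349 percentage points. Atp5j2, at 3406 and 2696 CPM in het and 1495 and 1600.5 CPM in KO, had a log2 difference of -0.93 (SE 0.23, adjusted p = 0.25), Atp5e one of -0.77 (SE 0.23) and Cox6a2, at 77.7 and 46.8 CPM in het and 26.4 and 16.8 CPM in KO, one of -1.45 (SE 0.35). The cardiomyocyte markers were at 1.08, 0.380, 0.454 and 0.203% in the same sums, and their part in the difference of Cox6a2 was not tested. Within a cluster, without TMM scaling, the het and KO libraries overlapped in Cox6a2, at 54.3, 40.9, 43.0 and 27.6 CPM in cluster 1 and 16.3, 18.4, 16.4 and 9.08 CPM in cluster 15. Ndufa9 (0.27, SE 0.32), Ndufs1 (0.21, SE 0.26) and Ndufb3 (0.18, SE 0.26), all of complex I, stood on the upper side.

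In the 3 remaining classes the members' medians lay near that of all genes. In mesenchymal-like cells the median was -0.042 beside -0.0014 over all genes, with the KO libraries below for 2 of 80 members and above for 0 (9.49% and 9.16% of all genes). In epicardial-like cells it was -0.030 beside -0.0005, with 2 of 78 members apart and higher and 0 lower (16.6% and 7.75%). Without het 2 edgeR called 1 member higher there, among 63 of 14447 genes called. In macrophage-like cells it was 0.042 beside 0.0014, with 7 of 79 higher and 0 lower (12.9% and 11.6%). Leaving out each library in turn moved these medians from -0.21 to 0.090, from -0.25 to 0.24 and from -0.095 to 0.18, so none kept its sign. Cox4i2 in mesenchymal-like cells, where it is highest, was at 29.4 and 45.02 CPM in het and 30.4 and 45.9 CPM in KO and overlapped between the genotypes (0.032, SE 0.25), and Ndufa4l2 had 0.25 (SE 0.22). The members of lowest p were Ndufb4 (0.29, SE 0.19), Cox8b (0.42, SE 0.43), Cox6a2 (-0.47, SE 0.34), Cox5b (-0.24, SE 0.18) and Cox7b2 (-0.65, SE 0.55) beside Ndufa4l2. In epicardial-like cells Atp5g2, at 53.7 and 49.0 CPM in het and 62.7 and 81.7 CPM in KO, had 0.45 (SE 0.20), with its libraries apart, Ndufa4l2 0.56 (SE 0.40) and Ndufb4 0.25 (SE 0.20) above 0, and Cox6a2 -0.81 (SE 0.37), Ndufs8 -0.29 (SE 0.19) and Ndufb4c -0.62 (SE 0.56) below. In macrophage-like cells Cox7a1, at 17.2 and 21.9 CPM in het and 24.4 and 25.6 CPM in KO, had 0.34 (SE 0.20), with its libraries apart, Atp5l 0.28 (SE 0.17) and Ndufb4 0.29 (SE 0.19), while Uqcrc2 -0.14 (SE 0.17), Uqcrc1 -0.14 (SE 0.20) and Ndufv2 -0.13 (SE 0.19) were below 0. Ndufb4 was above 0 in all 6 classes (0.11, SE 0.28 in erythroid-like cells), but below 0 in endothelial-like and mesenchymal-like cells without KO 2, and its reads can be shared with the retrocopy Ndufb4c.

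The make-up of the libraries by sex differed: Ddx3y, a Y-linked gene, had 2008, 7486 and 3391 UMIs in het 1, het 2 and KO 1 and 0 in KO 2. The 3 X-linked members, the complex I subunits Ndufa1 and Ndufb11 and the complex IV subunit Cox7b, were therefore read as a group. In cardiomyocyte-like cells their log2 differences were 0.061 (SE 0.17), 0.024 (SE 0.20) and 0.30 (SE 0.22), within the range of the other members. In endothelial-like cells they were 0.013 (SE 0.17), -0.15 (SE 0.21) and -0.088 (SE 0.21), and in erythroid-like cells -0.72 (SE 0.25), -0.37 (SE 0.25) and -0.63 (SE 0.23), each below that class's member median of -0.30, with adjusted p by edgeR of 0.271, 0.448 and 0.277.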

How the data were processed

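Cells of 4 heart ventricle libraries, 2 of Gata4_het and 2 of Gata4_KO, were sequenced on a droplet platform, and the labels name 2 versions of its kit. The authors deposited a matrix of raw UMI counts per gene and barcode for each library, made with Cell Ranger 6.0.1 per the file headers. The submitters' processing notes name mm10, Cell Ranger and Seurat, and further steps are not given in the sources used here. Every stored value was a whole number, and the 55405 features include 4 added sequences.

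Barcodes with at least 500 genes and under 20% mitochondrial UMIs were kept, and doublets were removed with Scrublet (scanpy 1.11.5, expected rate 0.1, threshold 0.3232 where its own threshold failed in het 1 and KO 2). Cells were clustered (2000 variable genes, 30 principal components, 20 neighbours, Leiden in igraph 0.11.9, resolution 1) without the members, mitochondrial and globin genes, Gata4 and sex-linked marker genes. Of 41 clusters, 17 were named as like a cell type from lists of markers. Clusters stayed unnamed where 1 library gave over 75% of cells, UMIs were few, markers of another type led, or cardiomyocyte markers took under 5% of UMIs for cardiomyocyte-like cells or at least 1% for any other class. Few UMIs kept out clusters 28 and 17, whose UMIs relative to the library median were 0.295 and 0.227, while cluster 0, at 0.305, was kept. Cluster 17, closest to endothelial markers, had 3.04% of UMIs on members.

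Counts were summed per library and class, leaving out 12 globin genes. Sums were tested with edgeR 4.0.16 (quasi-likelihood, filterByExpr with a minimum count of 10 and a total of 15, TMM, Benjamini-Hochberg over all genes tested at 0.05), with library as a block between classes and without a block between genotypes. The test was checked on simulated data. Shares of UMIs were compared between genotypes by exact permutation over libraries. Each sum rests on 79 to 6597 cells, and intervals for counting error are not given because the spread between libraries is. Alternatives were DESeq2 1.42.0, library size without TMM, no filter on low counts, mitochondrial UMIs under 10%, cells of at least 2000 or (chosen after seeing the data) 10000 UMIs, a replicate block, each library left out, and, also chosen after seeing the data, unnamed clusters kept and the largest cluster alone. Positions came from GENCODE M21 and promoters from RefSeq (GRCm38.p6). Python 3.11.15 and R 4.3.3 were used.

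The members, marker lists and lists of other metabolic genes were chosen with earlier results of these data known. Named members are all isoform sets, the highest and lowest of each complex, the 3 of lowest p in each direction of a genotype comparison (5 in endothelial-like cells) and of the interaction, the 5 of largest difference in each direction between classes, and the X-linked ones. Of each other list the 3 of lowest p could be named. Subunits named by role, Uqcrfs1 among them outside its own fits, were added after the values were seen. The values of 1 member are not reported singly here.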

Additional observations from a re-analysis of the deposited data

Results flagged for a closer look

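Rows whose pseudogene names kept them out of the members held UMIs all the same. Ndufb1-ps held 183081 UMIs, more than many members, at 592 ± 134 CPM in cardiomyocyte-like and 187 ± 31.1 CPM in endothelial-like cells (SD, n = 4). Ndufa12-ps held 19945 UMIs, at 70.0 ± 16.3 CPM in cardiomyocyte-like and 17.0 ± 3.88 CPM in endothelial-like cells. Both were higher in cardiomyocyte-like cells by edgeR, with a log2 difference of 1.72 (adjusted p = 2.50e-06) and 2.12 (adjusted p = 1.64e-07). The names end like pseudogenes, and reads of these rows can be shared with other copies. GENCODE M21 types Ndufa12-ps as a processed pseudogene, but Ndufb1-ps as a long non-coding RNA at a bidirectional promoter. Cox7c-ps1 held 1975 UMIs, Atp5pb-ps 958, Cox5b-ps (protein coding in GENCODE M21) 777, Ndufs5-ps 315 and Atp5l2-ps 51.

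Cells that got no class name were outside the comparisons and held members too. The members took 4.83% of their non-globin UMIs in het 1 (17539 cells), 3.25% in het 2 (867 cells), 3.28% in KO 1 (1487 cells) and 3.42% in KO 2 (592 cells). Cardiomyocyte markers took 4.50, 1.48, 2.20 and 1.05% of UMIs in the same cells, highest in het 1 as well, and the part of cardiomyocytes in these cells was not tested.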

How the results depend on the processing

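All counts of members called between cardiomyocyte-like and either other class stayed within 1.5 times under every alternative run. Between mesenchymal-like and endothelial-like cells, 21 members were higher and 12 lower with library size alone, 18 and 9 in cells of at least 10000 UMIs, and 6 to 16 higher and 13 to 18 lower with 1 library left out. The shares of all genes called in these runs are not given here. Of the members named there, Cox6b2 lost its call without KO 2 and Cox6a2 in cells of at least 10000 UMIs. Between genotypes, where edgeR called 0, leaving out 1 library gave 0 to 4 members in cardiomyocyte-like, 0 to 3 in endothelial-like, 0 to 1 in epicardial-like and 0 to 4 in erythroid-like cells. Without the filter on low counts 2 were called in endothelial-like and 2 in erythroid-like cells, and DESeq2 called 1 in erythroid-like cells. The number of all genes called without the filter is not given here, so those counts cannot be set against a background. The cause was not tested.

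Libraries with the same number deviated together (r = 0.404 to 0.638 across genes, which are not independent), but there are only 2 pairs and the labels do not say what the number marks. With the replicate number as a block, edgeR called 41 members in cardiomyocyte-like cells, 3 in endothelial-like and 16 in erythroid-like cells, among 1585, 655 and 2985 genes of all.

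With 1 library left out, the KO minus het share of UMIs on members ran from -0.171 to 0.0524 percentage points in mesenchymal-like, -0.239 to 0.186 in epicardial-like and -0.0989 to 0.223 in macrophage-like cells, so its sign turned. In erythroid-like cells it was 0.349 with globin kept in the total. Log2 differences whose sign turned with 1 library left out were, in cardiomyocyte-like cells, Uqcrc1 (-0.380 to 0.213), Cox6a1 (-0.228 to 0.117), Ndufa4l2 (-0.468 to 0.551). In endothelial-like cells they were Ndufb4 (-0.178 to 0.583), Atp5g2 (-0.031 to 0.494), Cox4i2 (-0.043 to 0.905), Atp5l (-0.213 to 0.364), Ndufs5 (-0.196 to 0.260). In mesenchymal-like cells they were Ndufb4 (-0.006 to 0.534), Ndufa4l2 (-0.004 to 0.600), Cox8b (-0.173 to 0.868), Cox6a2 (-0.873 to 0.013), Cox7b2 (-1.059 to 0.346). Elsewhere they were Ndufb4c in epicardial-like (-0.899 to 0.185) and Ndufa9 in erythroid-like cells (-0.072 to 0.568), and Uqcrc2 (-0.294 to 0.027), Uqcrc1 (-0.332 to 0.078), Ndufv2 (-0.350 to 0.064) in macrophage-like cells. In the largest cluster alone Uqcrc1 had 0.002 and Cox6a1 0.094 in cardiomyocyte-like and Cox8b -0.075 in mesenchymal-like cells. With 2 libraries a group, and levels under 1 CPM for some members, small differences were not detectable at this depth.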
